A study of Mus musculus with 6 samples.

Results

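P2rx7, which encodes the ATP-gated channel P2X7, was examined together with 9 other genes of extracellular ATP and adenosine signalling in brown adipose tissue (BAT) of cold-exposed mice with and without ablation of Foxp3-expressing cells. P2rx7 was selected on its own difference between the groups in these arrays, and the other genes were chosen by function, as further receptors for nucleotides (P2rx4, P2ry6, P2ry12, P2ry14), ectonucleotidases (Entpd1, Nt5e) and adenosine receptors (Adora1, Adora2a, Adora2b). All 10 were found among the 25206 features of the arrays. Because P2rx7 was chosen by its difference, its values are given as a description, without a test.

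BAT was taken from 3 mice injected with diphtheria toxin (DT 5, DT 9 and DT 16) and from 3 injected with phosphate-buffered saline (PBS 12, PBS 18 and PBS 20), with 1 array per mouse. All were females of the strain FoxP3 DTR B6, so DT and PBS mice carried the same toxin receptor, which is expressed under control of Foxp3 gene elements and makes cells with active Foxp3, mainly regulatory T (Treg) cells, sensitive to the toxin throughout the body. Per the labels the mice were housed singly at 22°C for 1 week, injected into the peritoneum on 2 consecutive days and kept at 4°C from the first injection until BAT was collected, 2 days of cold in all. The labels were followed for the temperature, for which the methods name a milder value, and the age of the mice is not given in the sources used here. No mice without the receptor that received DT are on these arrays, so an effect of the toxin itself and the loss of Foxp3-expressing cells cannot be told apart here.

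ATP is kept inside intact cells and acts as a signal once it is released by damage, channels or exocytosis. P2X receptors are cation channels that ATP opens, and P2Y receptors are coupled to G proteins and sense ATP, ADP, UDP or UDP-glucose. The ectonucleotidase CD39 (Entpd1) degrades ATP and ADP to AMP, and CD73 (Nt5e) converts AMP to adenosine, which acts through its own receptors. P2X7 needs far more ATP than the other P2X receptors, is abundant on macrophages, and is known for the potassium efflux that activates the NLRP3 inflammasome and the release of interleukin-1 beta. In brown adipocytes adenosine receptors are linked to adenylyl cyclase, the enzyme through which cold and noradrenaline stimulate thermogenesis.

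The quantile-normalised log2 values ran between 3.01 and 14.1 around a median of 5.10. Probes of different genes bind unequally, so levels were compared between mice and never between genes. The 6 brown adipocyte markers were bright on every array, with a mean of 12.02 to 12.05 in DT and of 11.95 to 12.04 in PBS arrays, and none was called (limma; 1 at an unadjusted p under 0.05). Foxp3 averaged 4.40 ± 0.10 in DT and 4.56 ± 0.16 in PBS arrays (SD, n = 3 each). Its limma adjusted p was 0.587, and its signal was below the array median in both groups. None of 5 Treg cell markers was called, and none had an unadjusted p under 0.05. A loss of Treg cells was therefore not detectable on these arrays. The study itself reported depletion of Foxp3-expressing cells, measured by RT-PCR of Foxp3 in BAT and spleen. A gene is termed called, or said to rise or fall, where limma over all 25206 features gave a Benjamini-Hochberg adjusted p under 0.05. This held for 1.73% of features (324 higher and 112 lower in DT).

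P2rx7 and P2rx4 lie close together on mouse chromosome 5, and P2rx4 is the nearest measured gene on its side of P2rx7. To show what the 2 starts annotated for P2rx7 and the one for its neighbour hold, their promoter windows (RefSeq, GRCm38.p6, plus strand, 250 bases before to 50 after each start) are printed 5′ to 3′ with matches to any of 5 motifs in capitals. The windows lie at chr5:122643677-122643976 (P2rx7 start 1), chr5:122650133-122650432 (P2rx7 start 2) and chr5:122707294-122707593 (P2rx4).
P2rx7 start 1: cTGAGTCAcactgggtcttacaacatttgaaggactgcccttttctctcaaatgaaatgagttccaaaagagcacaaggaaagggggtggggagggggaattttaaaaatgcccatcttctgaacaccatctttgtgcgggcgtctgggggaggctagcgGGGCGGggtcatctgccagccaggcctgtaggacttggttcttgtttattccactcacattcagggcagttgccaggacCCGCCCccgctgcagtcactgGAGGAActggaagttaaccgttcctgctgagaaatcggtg
P2rx7 start 2: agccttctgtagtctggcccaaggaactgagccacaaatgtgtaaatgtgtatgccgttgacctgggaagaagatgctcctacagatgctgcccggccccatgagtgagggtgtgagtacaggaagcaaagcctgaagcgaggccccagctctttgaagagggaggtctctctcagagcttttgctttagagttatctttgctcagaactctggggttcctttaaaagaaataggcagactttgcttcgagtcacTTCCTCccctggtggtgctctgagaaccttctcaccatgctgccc
P2rx4: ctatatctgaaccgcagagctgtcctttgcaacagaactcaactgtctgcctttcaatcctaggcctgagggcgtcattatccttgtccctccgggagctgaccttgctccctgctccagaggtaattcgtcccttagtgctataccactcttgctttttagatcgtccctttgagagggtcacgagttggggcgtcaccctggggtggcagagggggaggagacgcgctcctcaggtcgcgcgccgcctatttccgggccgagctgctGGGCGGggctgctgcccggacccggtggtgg
The motifs, searched on both strands, were those of AP-1 (TGANTCA), PU.1-type ETS factors (GAGGAA), the GC box (GGGCGG), STAT factors (TTCNNNGAA) and IRF-type factors (GAAANNGAA); no 2 matches overlapped in these windows. The first P2rx7 window held 1 AP-1 match at bases 2 to 8, GC boxes at bases 161 to 166 and 240 to 245, and 1 PU.1-type match at bases 261 to 266, counted from the 5′ end of the window. The second held a PU.1-type match alone, at bases 256 to 261, and the P2rx4 window a GC box alone, at bases 270 to 275. Such matches are common: of all 32851 windows in the table, 7.81% held the AP-1, 28.3% the PU.1-type, 35.7% the GC box, 8.30% the STAT and 8.56% the IRF-type motif. Of the 10 genes 8 had at least 1 window, 14 in all, of which 4 held the AP-1, 7 the PU.1-type, 5 the GC box and none the STAT or IRF-type motif; a pair of overlapping P2ry14 windows holds the same PU.1-type match. The arrays give 1 value per gene and do not separate the starts.

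Of the 10 genes, P2rx7 differed most between the groups. Its log2 level was 8.25 for DT 5, 8.33 for DT 9 and 8.83 for DT 16, against 5.90 in PBS 12, 6.12 in PBS 18 and 5.89 in PBS 20. All DT arrays lay more than 2 log2 units above all PBS arrays, with DT 16 the highest and PBS 18 the highest of its group. The means were 8.47 ± 0.32 in DT and 5.97 ± 0.13 in PBS (SD, n = 3 each), a log2 difference of 2.50 (SE 0.16) or 5.66-fold. This was the 10th largest positive difference among the 25206 features. Without DT 16 the difference was 2.32, and without any other single array it lay between 2.46 and 2.61. In RNA of whole tissue, a change in the number of cells that express a gene and a change in its RNA per cell cannot be told apart.

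**Figure D1:**
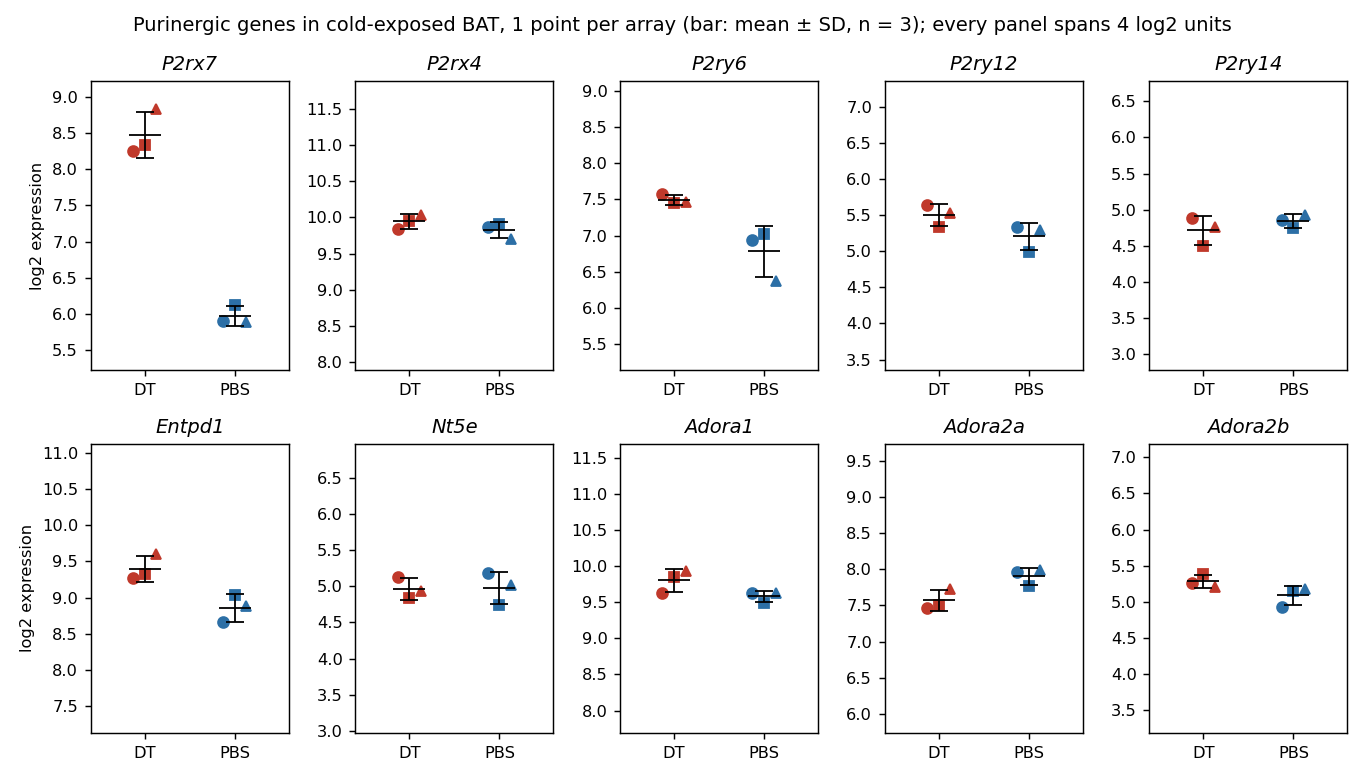
Log2 expression (y axis, 1 panel per gene, each spanning 4 log2 units) of the 10 genes in DT arrays (red; circle DT 5, square DT 9, triangle DT 16) and PBS arrays (blue; circle PBS 12, square PBS 18, triangle PBS 20), with mean ± SD (n = 3 each). P2rx7 averaged 8.47 in DT and 5.97 in PBS arrays, while differences of the other genes ranged from -0.34 to 0.71.

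P2rx4, a channel of immune, neuronal and other cells that also responds to ATP, was at 9.84, 9.95 and 10.04 in DT arrays, against 9.87, 9.91 and 9.70 in PBS arrays. The groups overlapped. Its log2 difference of 0.12 (SE 0.09, 95% interval -0.10 to 0.33) missed the threshold (adjusted p = 0.685). The upper end of that interval lies far below the difference measured for P2rx7. Because P2rx7 was chosen for its difference, that gap follows largely from the choice. Of the 6 measured P2X genes other than P2rx7, limma called 0, against 1.73% of all features. At an unadjusted p under 0.05 there were also 0, against 13.3% of all features. These 2 shares are the background for each count by role or cell type below. The median difference of the 6 genes was -0.11, against -0.01 over all features. P2rx3, a channel of sensory neurons, had values of 4.44, 4.40 and 4.42 in DT and of 4.72, 4.52 and 4.54 in PBS arrays (difference -0.17, adjusted p = 0.423). P2rx6 was at 7.64, 7.55 and 7.64 in DT and at 7.71, 7.86 and 7.73 in PBS arrays (difference -0.16, adjusted p = 0.434). In both genes the DT values lay below all PBS values by a small margin, a pattern that 18.6% of all features showed in either direction.

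The genes on both sides of P2rx7 on chromosome 5 were set beside it. Of the 10 measured neighbours, 5 on each side, limma called none, against 1.73% of all features. At an unadjusted p under 0.05 there were 2, against 13.3% of all features. The differences of the neighbours ran from -0.35 to 0.17. Before P2rx7 in the RefSeq table come Gpn3 (0.05), Arpc3 (0.01), Anapc7 (0.17), the calcium pump gene Atp2a2 (0.10) and Ift81 (-0.16). After it come P2rx4, the kinase gene Camkk2 (-0.35, adjusted p = 0.266), Anapc5 (0.04), Rnf34 (-0.17) and the histone demethylase gene Kdm2b (-0.27, adjusted p = 0.290). Camkk2 and Kdm2b were lower in all DT arrays than in all PBS arrays. Groups that did not overlap were thus found for 2 of 10 neighbours, against 18.6% of all features.

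**Figure D2:**
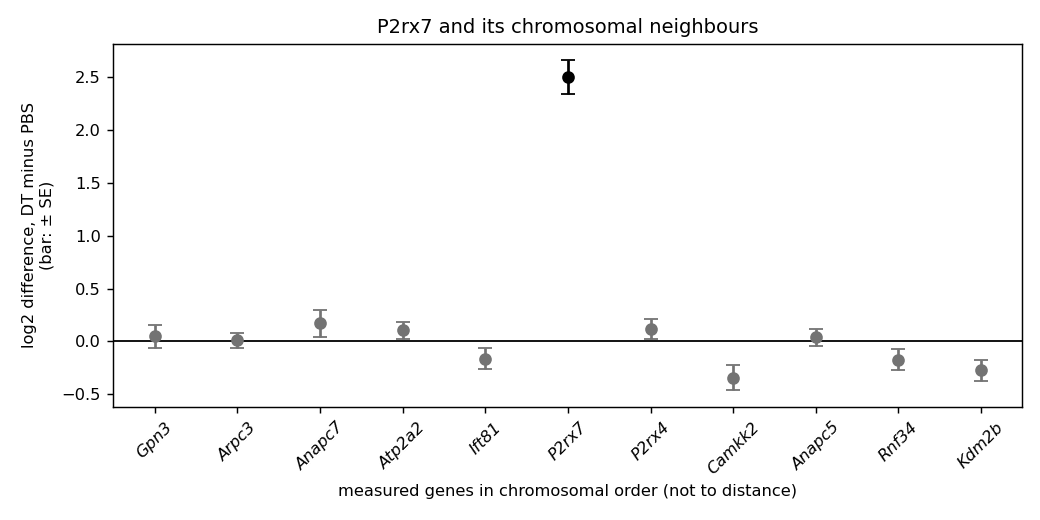
Log2 difference, DT minus PBS (y axis, point with ± SE of the limma fit), of P2rx7 (black) and the 5 nearest measured genes on each side (grey) in chromosomal order (x axis, not to distance). P2rx7 stands at 2.50, and the neighbours lie between -0.35 and 0.17.

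Among the G protein-coupled nucleotide receptors, P2ry6 had the largest difference. P2ry6, the UDP receptor of phagocytes, measured 7.57 for DT 5, 7.45 for DT 9 and 7.46 for DT 16, against 6.94 in PBS 12, 7.03 in PBS 18 and 6.37 in PBS 20. The groups did not overlap, and the PBS arrays were uneven, with PBS 20 lowest. The difference of 0.71 (SE 0.17, 95% interval 0.32 to 1.11, 1.64-fold) missed the threshold over all features (adjusted p = 0.110). The difference was 0.51 without PBS 20. A variance model with a robust prior and a trend on intensity (the trend model) gave an adjusted p of 0.0442; over all alternatives it ranged from 0.0442 to 0.349.

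P2ry12, an ADP receptor known from platelets and microglia, was at 5.64, 5.34 and 5.53 in DT and at 5.33, 4.99 and 5.29 in PBS arrays. The lowest DT value lay 0.009 above the highest PBS value, so the groups were barely apart, and the signal was close to the array median. The difference was 0.30 (SE 0.12, adjusted p = 0.353). P2ry14, the receptor for UDP-glucose, was at 4.89, 4.49 and 4.76 in DT and at 4.86, 4.75 and 4.93 in PBS arrays, with overlap (difference -0.13, SE 0.11, adjusted p = 0.723). P2ry13, a further ADP receptor, was at 4.30, 4.39 and 4.32 in DT and at 4.52, 4.52 and 4.65 in PBS arrays. It was lower in each DT array than in each PBS array at a weak signal (difference -0.23, adjusted p = 0.250). Of the 7 P2Y genes 0 were called (limma; 4 at an unadjusted p under 0.05: P2ry6 and P2ry12 higher, P2ry13 and P2ry1, the last named after its value was seen, lower in DT), with a median of -0.10.

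The pair of enzymes that turns ATP into adenosine gave unequal values. Entpd1, which encodes CD39, measured 9.26 for DT 5, 9.33 for DT 9 and 9.60 for DT 16, against 8.66 in PBS 12, 9.04 in PBS 18 and 8.88 in PBS 20. All DT arrays were above all PBS arrays. The difference of 0.54 (SE 0.13, 95% interval 0.23 to 0.84, 1.45-fold) missed the threshold (adjusted p = 0.117; 0.0343 in the trend model, and 0.0343 to 0.337 over all alternatives). Nt5e, which encodes CD73, was at 5.13, 4.84 and 4.93 in DT and at 5.18, 4.75 and 5.02 in PBS arrays. Its groups overlapped throughout, with a difference of -0.01 (SE 0.13, 95% interval -0.32 to 0.29, adjusted p = 0.983) at a signal near the array median. A test of the difference between Entpd1 and Nt5e was not made. Of 9 ectonucleotidase genes 0 were called (limma; 1, Entpd1, at an unadjusted p under 0.05), with a median of 0.03. Entpd3, a related ATP-degrading enzyme, differed by -0.19 (adjusted p = 0.452).

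The adenosine receptors had differences of both signs, and none was called. Adora2a, a receptor that stimulates adenylyl cyclase, measured 7.47 for DT 5, 7.51 for DT 9 and 7.73 for DT 16, against 7.96 in PBS 12, 7.77 in PBS 18 and 7.98 in PBS 20. Every DT value lay below every PBS value, by 0.035 where DT 16 and PBS 18 came closest. The difference was -0.34 (SE 0.10, 95% interval -0.58 to -0.10, adjusted p = 0.214). Adora1, the receptor of adipocytes that inhibits adenylyl cyclase, was at 9.63, 9.84 and 9.93 in DT and at 9.62, 9.49 and 9.63 in PBS arrays. DT 5 fell among the PBS arrays, and the difference was 0.22 (SE 0.10, adjusted p = 0.408). Adora2b, a low-affinity stimulatory receptor, was at 5.26, 5.38 and 5.21 in DT and at 4.93, 5.16 and 5.18 in PBS arrays, with 0.033 between the nearest arrays of the groups. The difference was 0.20 (SE 0.09, adjusted p = 0.447) at a signal near the array median. Of 4 adenosine receptor genes 0 were called (limma; 1, Adora2a, at an unadjusted p under 0.05), with a median of 0.15.

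Ordered by their differences, P2rx7 (2.50) was followed by P2ry6 (0.71), Entpd1 (0.54), P2ry12 (0.30), Adora1 (0.22), Adora2b (0.20), P2rx4 (0.12), Nt5e (-0.01), P2ry14 (-0.13) and Adora2a (-0.34). From P2ry6 downwards, the 95% intervals of each pair of neighbours in this order overlapped. Of the 9 genes other than P2rx7, 0 were called with limma, against 1.73% of all features (1.29% higher, 0.444% lower). At an unadjusted p under 0.05 there were 4 of 9 (P2ry6, P2ry12 and Entpd1 higher, Adora2a lower), against 13.3% of all features, and 5 of 9 had groups that did not overlap, against 18.6%. These shares come from genes assembled with the results known and are given as a description. The model without moderation called 0 of 9 (3 at an unadjusted p under 0.05), and the trend model called 2, P2ry6 and Entpd1.

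The remaining genes of the pathway were taken from lists by role. Of 54 measured pathway genes other than P2rx7, 1 rose (1.85%, against 1.29% of all features) and none fell (against 0.444%), with a median difference of 0.03. An unadjusted p under 0.05 was found for 15 of the 54 (against 13.3% of all features), and groups that did not overlap for 19 (against 18.6%); 9 of the 54 are the genes described above, and the lists were assembled with the results known. The called gene was Casp4, the inflammatory caspase that senses bacterial lipopolysaccharide inside cells. Casp4 was at 4.99, 5.16 and 5.14 in DT 5, DT 9 and DT 16, against 4.34, 4.09 and 4.07 in PBS 12, PBS 18 and PBS 20, a rise of 0.93 (SE 0.10, adjusted p = 0.00770). The nearest arrays of the groups lay 0.65 apart, at a signal around or below the array median. The call held with each array left out (adjusted p up to 0.0445) and was lost without moderation (adjusted p = 0.127).

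Casp4 belongs to a list of 10 genes linked to the route from P2X7 to interleukin-1, not all of them steps after P2X7. All 10 had differences above 0, as did 46.0% of all features, and the median was 0.23. Gsdmd, whose product forms the pore that releases interleukin-1, was at 5.60, 5.64 and 5.67 in DT and at 5.46, 5.33 and 5.33 in PBS arrays (difference 0.26, adjusted p = 0.176). Pycard, the inflammasome adaptor, was at 5.77, 5.90 and 5.86 in DT and at 5.54, 5.72 and 5.30 in PBS arrays (difference 0.33, adjusted p = 0.273). In both genes the DT arrays lay above all PBS arrays. Casp1, Nlrp3 and Il1b are given because they are the core of this route and were picked after their values were seen. Casp1, the caspase that cleaves interleukin-1 beta, measured 4.69 for DT 5, 3.80 for DT 9 and 3.91 for DT 16, against 3.58, 3.71 and 3.43 in PBS arrays (difference 0.56, adjusted p = 0.344). Il1b was at 4.40, 3.80 and 3.94 in DT and at 3.47, 3.79 and 4.12 in PBS arrays (difference 0.25, adjusted p = 0.700). DT 5 was the highest array for both genes. Casp1 was narrowly apart between the groups, and Il1b overlapped. The sensor Nlrp3 differed by 0.06 (adjusted p = 0.914). Of these 10 genes 6 had means below the array median, where background can compress differences.

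ATP release was represented by 6 genes, of which 0 were called (limma; 2 at an unadjusted p under 0.05), with a median of -0.05. Gja1, the gap junction protein connexin 43, was at 11.07, 10.84 and 10.61 in DT and at 11.29, 11.24 and 11.54 in PBS arrays. It was lower in all DT arrays (difference -0.52, SE 0.14, adjusted p = 0.150). Lrrc8a, the obligatory subunit of volume-regulated anion channels, was at 9.22, 9.46 and 9.56 in DT and at 8.90, 9.05 and 8.98 in PBS arrays. It was higher in all DT arrays (difference 0.44, SE 0.10, adjusted p = 0.113; 0.0338 in the trend model). The ATP-permeable channel gene Panx1 differed by 0.06 (adjusted p = 0.890) and was named after its value was seen.

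Of 8 genes of adenosine uptake and breakdown 0 were called (limma; 2 at an unadjusted p under 0.05), with a median of -0.03. Dpp4, the surface peptidase CD26 that in humans anchors adenosine deaminase, was at 5.80, 5.53 and 5.62 in DT and at 4.85, 5.42 and 4.99 in PBS arrays. The difference of 0.56 (SE 0.15, adjusted p = 0.174) became 0.72 without PBS 18, where it was called (adjusted p = 0.0403). Pnp, the purine nucleoside phosphorylase, was at 5.19, 5.14 and 5.15 in DT and at 4.96, 4.88 and 4.48 in PBS arrays (difference 0.39, adjusted p = 0.253). Both genes were higher in all DT arrays.

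Extracellular NAD can open mouse P2X7 through ADP-ribosylation, and 4 genes of that route were measured. None was called (limma; 1 at an unadjusted p under 0.05), with a median of 0.00. Bst1 (CD157), a surface enzyme that consumes NAD, was at 5.68, 5.46 and 6.07 in DT and at 4.43, 5.31 and 4.35 in PBS arrays. Its difference of 1.04 (SE 0.27, adjusted p = 0.144) was second to P2rx7 among all pathway genes, and PBS 18 was nearest to the DT arrays. Without PBS 18 the difference was 1.35 and was called (adjusted p = 0.0277). The related NAD glycohydrolase gene Cd38 differed by -0.06 (adjusted p = 0.892). Art2b, a further gene of the list, was named after its values were seen. It averaged 3.337 in DT and 3.365 in PBS arrays (difference -0.03, limma adjusted p = 0.931). That signal is close to the lowest value of the arrays, 3.01, and cannot show small changes. Art1, a mono-ADP-ribosyltransferase of skeletal muscle named after its values were seen, was at 6.17, 6.25 and 5.08 in DT and at 5.61, 5.97 and 5.81 in PBS arrays. It was lowest in DT 16, the array with the lowest mean of 4 skeletal muscle markers (10.25 in DT 5, 10.37 in DT 9 and 7.57 in DT 16, against 8.80, 10.21 and 9.24 in PBS 12, PBS 18 and PBS 20); the part of muscle in the dissected tissue in the Art1 values was not tested.

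**Figure D3:**
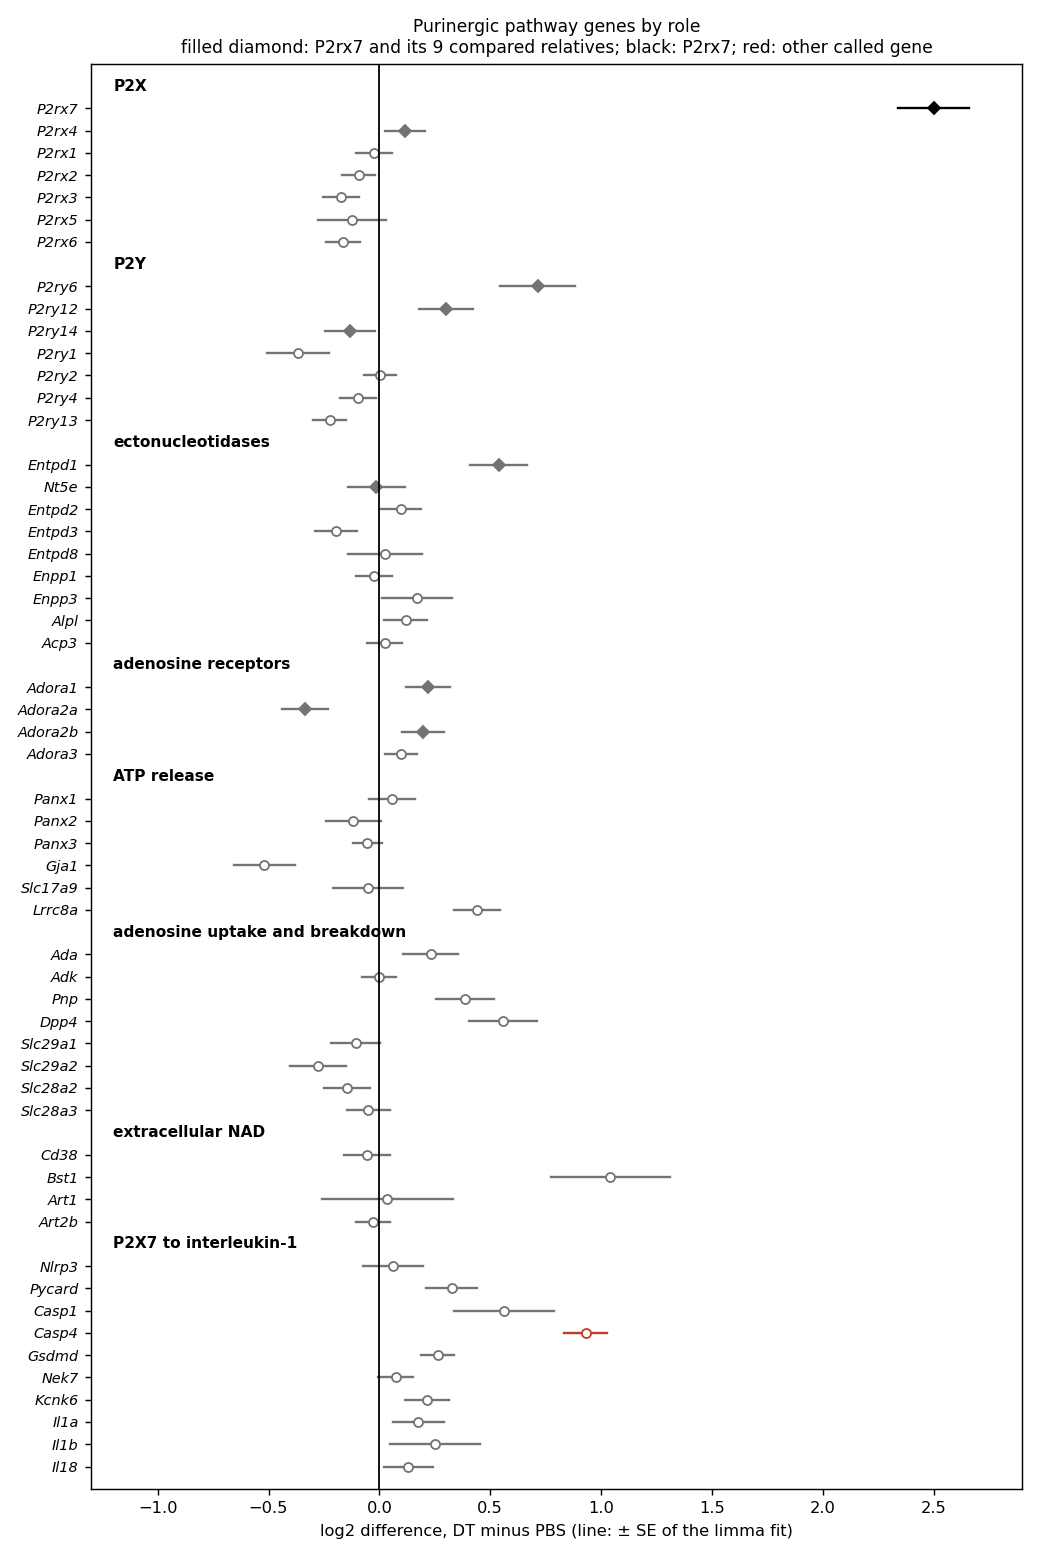
Log2 difference, DT minus PBS (x axis, point with ± SE of the limma fit), of 55 purinergic pathway genes by role (y axis). The 10 genes examined here are filled diamonds, with P2rx7, given without a test, in black. Casp4, the called gene among the others, is in red. P2rx7 stands at 2.50, Bst1 and Casp4 follow at 1.04 and 0.93, and the other genes lie between -0.52 and 0.71.

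Macrophages are known carriers of P2X7, and part of their markers were also higher in DT arrays. Of 14 measured macrophage markers 4 rose (against 1.29% of all features) and none fell (against 0.444%). The median difference was 0.54, with a range of -0.21 to 1.83. The uncalled markers are named here after their values were seen. They were Fcgr1 (1.07), Mrc1 (0.71), Adgre1 (0.59), C1qb (0.48), Mertk (0.18), Csf1r (0.18), Timd4 (0.06), Cd14 (0.03), C1qa (-0.03) and Cd163 (-0.21). Those called were the lysosomal protein gene Cd68 (1.83), the integrin gene Itgam (1.73), Lyve1 (1.68), which lymphatic endothelium also expresses, and the perforin-like Mpeg1 (1.40). Cd68 and Mpeg1 were called with each array left out, while Itgam lost its call without DT 16 or PBS 12, and Lyve1 without DT 9, DT 16, PBS 12 or PBS 20. The mean log2 level of the 14 markers was 7.50 to 7.67 in DT and 6.78 to 7.12 in PBS arrays. The groups were apart by 0.69 on average. Of the PBS arrays PBS 18 had the highest mean, as it did for P2rx7. Among the DT arrays the marker mean was 7.67 in DT 5, 7.50 in DT 9 and 7.64 in DT 16. P2rx7 was at 8.25, 8.33 and 8.83 in the same arrays. Orders over 3 arrays per group, with DT marker means this close, cannot relate P2rx7 to the number of macrophages.

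The levels were also expressed relative to the macrophage markers on the same array. For P2rx7, the log2 level minus the marker mean was 0.58 in DT 5, 0.83 in DT 9 and 1.20 in DT 16, against -0.93 in PBS 12, -0.999 in PBS 18 and -0.89 in PBS 20. The difference between the groups on that scale was 1.81. Because P2rx7 was chosen for its own large difference, the size of this value follows largely from the choice. It says nothing on the number of macrophages. P2ry6 shifted by 0.02 and Entpd1 by -0.15 on the same scale, with overlapping groups for both, so their differences were of the size of the marker mean. P2rx4, whose own level overlapped between the groups, shifted by -0.58. These values depend on the markers listed, and the share of macrophages in the P2rx7 difference was not tested. Apart from its arrays, the study reported increased macrophage infiltration in BAT of Treg-depleted mice, from immunohistochemical staining for a macrophage marker.

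Markers of other cells were examined in the same way. Of 5 fibroblast and pericyte markers 2 rose (against 1.29% of all features), Col1a1 (1.07) and Pdgfra (0.66). The list mean was 9.81 to 10.02 in DT and 9.16 to 9.56 in PBS arrays. Col1a1 was called with each array left out, and Pdgfra only without PBS 18. Of 4 dendritic cell markers Cd209a alone was called, lower in DT (-0.75), as were 0.444% of all features. It was not called with any 1 array left out. No marker of T cells (0 of 6; 1 at an unadjusted p under 0.05), B cells (0 of 4; 0), NK cells (0 of 3; 0), neutrophils (0 of 6; 1), mast cells and eosinophils (0 of 5; 2), endothelial cells (0 of 5; 1), Schwann cells and neurons (0 of 5; 0), platelets (0 of 3; 1), erythroid cells (0 of 2; 0) or skeletal muscle (0 of 4; 0) was called with limma. The 2 mast cell and eosinophil markers in that count, named after their values were seen, had opposite signs: Cpa3 (0.77) and Kit (-1.04). With 1 array left out, the macrophage markers Fcgr1 (without DT 9) and Mrc1 (without PBS 18) and the platelet marker Pf4 (without PBS 18) were called in addition. The neutrophil markers, all 6 below the array median, had a mean of 4.15 to 4.54 in DT and of 4.05 to 4.15 in PBS arrays, with DT 5 the highest, the array in which Casp1 and Il1b were also highest.

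**Figure D4:**
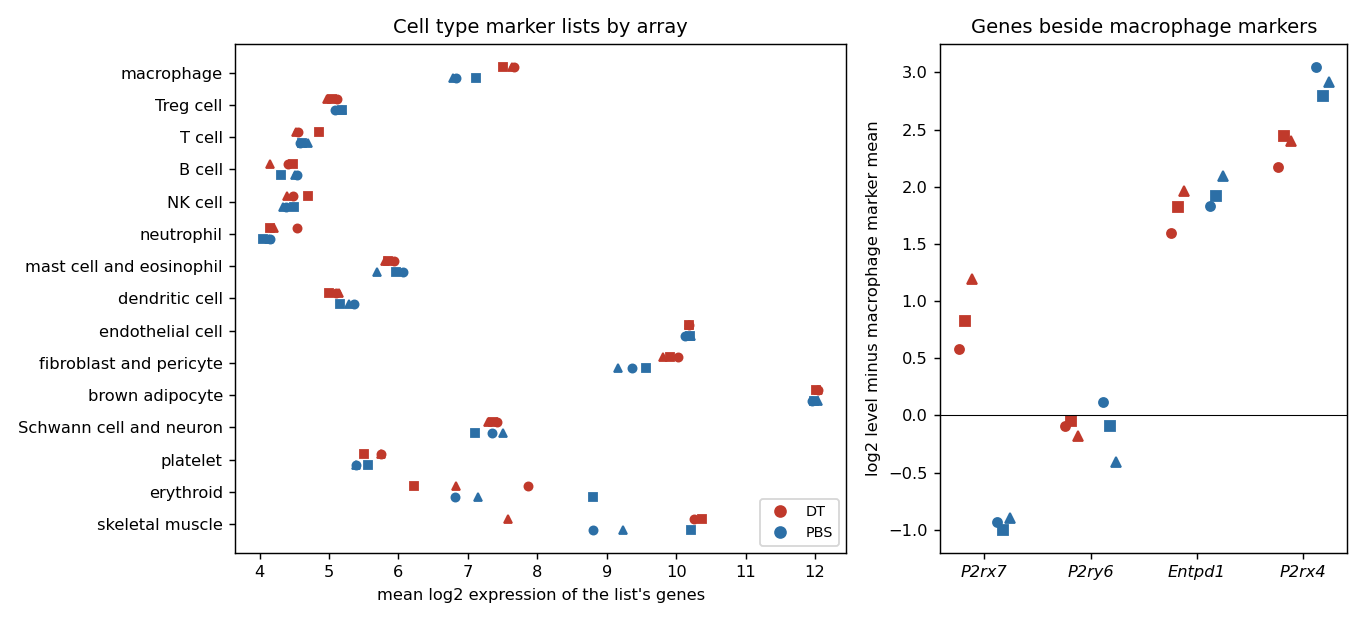
Left, mean log2 expression (x axis) of each cell type marker list (y axis) per array, DT in red (circle DT 5, square DT 9, triangle DT 16) and PBS in blue (circle PBS 12, square PBS 18, triangle PBS 20); right, log2 level minus the macrophage marker mean (y axis) for P2rx7, P2ry6, Entpd1 and P2rx4 on the same arrays. The macrophage means are 7.50 to 7.67 in DT and 6.78 to 7.12 in PBS arrays, and on the right scale P2rx7 lies at 0.58 to 1.20 in DT and at -0.999 to -0.89 in PBS arrays.

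The profile of P2rx7 over the 6 arrays was compared with that of every named gene above the array median. The 10 most similar, by Pearson r over 6 arrays that share the treatment contrast, had r between 0.994 and 0.997, which is a description of shape. They were the monocyte chemoattractant Ccl2, the secreted glycoprotein Lrg1, the oncostatin M receptor Osmr, Pnrc1, the leukocyte phosphatase Inpp5d (SHIP1), the membrane repair protein Myof, the mitotic kinase Cdk1, the class I histocompatibility gene H2-Q4, the basement membrane collagen Col4a1 and Ppp2r3c. Ccl2 was at 9.04, 9.44 and 9.78 in DT 5, DT 9 and DT 16 and at 6.01, 6.02 and 5.91 in PBS 12, PBS 18 and PBS 20, so that DT 16 was the highest array, as for P2rx7. Inpp5d was at 7.15, 7.12 and 7.32 in DT and at 6.61, 6.68 and 6.63 in PBS arrays, with the same arrays highest in each group as P2rx7. The size of the change was not shared, since the log2 differences of the 10 ran from 0.13 for Ppp2r3c to 3.44 for Ccl2. Among the other 9 purinergic genes, Entpd1 was closest to P2rx7 (r = 0.926), followed by P2ry6 (r = 0.864), and Adora2a was the most opposed (r = -0.794).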

How the data were processed

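Total RNA of BAT was biotin-labelled and hybridised to Affymetrix arrays. The authors deposited log2 values, 1 per Entrez gene, made with RMA (per the submitters' processing notes), a custom chip definition with Entrez gene definitions and quantile normalization; the sorted values of the arrays differed by at most 0.00179. A shift of all genes in 1 group is therefore removed, and weak signals are compressed by background. Arrays have no read depth, so precision is set by their number. The genome build is not given in the sources used here.

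Each feature ID is an Entrez number, which matched the platform annotation in all 23185 listed features and named 23740 of 25206 through the RefSeq table, Adora1, Adora2a and Adora2b through that table alone. Promoters are from RefSeq (GRCm38.p6). Lyz2 and Hba-a1 of the marker lists were not matched.

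DT was compared with PBS by limma 3.58.1 (lmFit, eBayes; R 4.3.3), 2-sided; p-values were adjusted by Benjamini-Hochberg across every feature, and calls were made under 0.05. The script was tested on simulated data. The study's mixed-model analysis in other software was not repeated. Differences are DT minus PBS on the log2 scale, SE from the fit. The series design states biological replicates. Groups came from sample titles, which share no animal number. The pathway lists and alternatives, and the genes examined, were chosen with earlier results of these data known. Text names the 10 genes, pathway genes called or with an unadjusted p under 0.01, up to 2 uncalled genes per role by smallest p, 5 measured neighbours on each side of P2rx7, the 10 most similar profiles and up to 4 called markers per cell type.

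Alternatives were centring each array on its median, cyclic loess, leaving out the dimmest 25% of features or those below the median signal, a variance prior that is robust and follows intensity, array weights, a per-gene linear model without moderation, and leaving out each array.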

Additional observations from a re-analysis of the deposited data

How the results depend on the processing

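P2rx7 kept its direction in all 13 alternatives, with a difference of 2.32 to 2.61. Its shift relative to the macrophage markers was 1.65 to 1.95. Because P2rx7 was chosen for its difference, these ranges are a description and no test of that difference. The filters, the variance prior and the model without moderation leave the difference of a single gene unchanged by construction. No pathway gene that was called changed its sign. The model with a robust prior and a trend on intensity called 2 of the 9 other genes examined, 4 pathway genes (P2ry6, Entpd1, Lrrc8a and Casp4) and 193 features lower in DT. Without moderation 0 features were called in either direction (2986 had an unadjusted p under 0.05, where limma had 3344) and 0 pathway genes. Leaving out features below the median signal removed Casp4 and left 0 pathway genes called, by construction. With 1 array left out, 1 to 3 pathway genes were called (3 without PBS 18, adding Dpp4 and Bst1), and 121 to 286 features were higher and 10 to 88 lower in DT. The counts fell most without DT 9 (121 and 14), DT 16 (127 and 10), PBS 12 (135 and 12) or PBS 20 (125 and 15), and 71 were lower without DT 5; the cause was not tested. Nt5e, never called, changed sign in 4 of 12 alternatives. No paired analysis was possible because DT and PBS mice share no animal number. Signals near the lower end of the range (Casp1, Il1b, Nlrp3, Art2b) cannot show small changes.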
